A study of Mus musculus with 2 samples.

Results

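CD8 T cells were examined in the dorsal meninges of male C57BL/6 mice (wild-type C57BL/6J in the methods) 1 week after a mild closed-skull traumatic brain injury (TBI) over the right inferior temporal lobe or after a Sham procedure. They were chosen by the gene values of each cell, and they numbered 89 of 5816 filtered cells, 31 in the Sham library and 58 in the TBI library. A cell was kept with 150 to 5000 detected genes, at most 20% mitochondrial and at most 5% hemoglobin UMIs (unique molecular identifiers, each a count of 1 captured transcript). It was called a CD8 T cell when Cd3d, Cd3e and Cd3g together had at least 2 UMIs, Cd8a or Cd8b1 had at least 1, and Cd4, Cd40lg, Cd79a and C1qa had 0.

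The labels give the mice of both groups as 10 weeks of age (10 to 12 weeks in another field) and name no transgene, mutation or drug in either. Each library pooled the meninges of 5 mice, from which live single cells were sorted by exclusion of a DNA dye, and the tissue collected left out the site of impact. With 1 library per group no test between TBI and Sham is possible, cells of 1 library are not replicates, and every interval below is an exact binomial 95% interval that covers counting error only.

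CD8 T cells recognise peptides on MHC class I through a T cell receptor that signals through the CD3 chains, with the CD8 alpha and beta chains (Cd8a, Cd8b1) as coreceptor. Naive cells recirculate through lymph nodes, whereas effector-memory and resident cells stay in or patrol tissues, make chemokines such as CCL5 and kill targets with perforin and granzymes. In the meninges such cells are part of the normal border immune population.

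The gate isolated cells with the defining transcripts of the lineage. In the Sham library the Cd3 sum was 2 at the lowest, 16 at the median and 43 at the highest, and in the TBI library it was 2, 15.5 and 59. Both coreceptor chains were detected in 24 of 31 Sham and 42 of 58 TBI cells, Cd8a without Cd8b1 in 4 and 8, and Cd8b1 without Cd8a in 3 and 8. The coreceptor genes lie side by side on GRCm38 chromosome 6 (Cd8b1 at chr6:71322788-71337494 and Cd8a at chr6:71373427-71379173, both on the plus strand). These values chose the cells and are a description of them. At the edge of the rule, 2 Sham cells and 1 TBI cell had a Cd3 sum of exactly 2, 5 and 8 cells had only 1 UMI of Cd8a and Cd8b1 together, and 0 Sham cells and 1 TBI cell met the rest of the rule with a Cd3 sum of 1. The limit on Cd4, Cd40lg, Cd79a and C1qa removed 5 of 36 Sham and 10 of 68 TBI cells. No barcode outside the cell filters, 656 in Sham and 576 in TBI, passed the gate. Of 20 barcode sequences found in both matrices none was a CD8 T cell in both.

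Depth was 164704 UMIs over the Sham CD8 T cells and 298921 over the TBI ones. A Sham cell had a median of 5486 UMIs (565 to 13001) and 1819 genes, and a TBI cell a median of 3983 UMIs (772 to 20611) and 1564 genes. The TBI cells were therefore shallower one by one and deeper as a sum. A count of 0 allows 18.2 CPM (counts scaled to a sum of 1000000) in the summed Sham cells and 10.0 CPM in the summed TBI cells, taking 3 counts as its limit. By the same limit, which is not a binomial interval, 0 of 31 or 0 of 58 cells allows up to 9.68% or 5.17% of cells with a UMI, not of cells that express the gene.

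**Figure D1:**
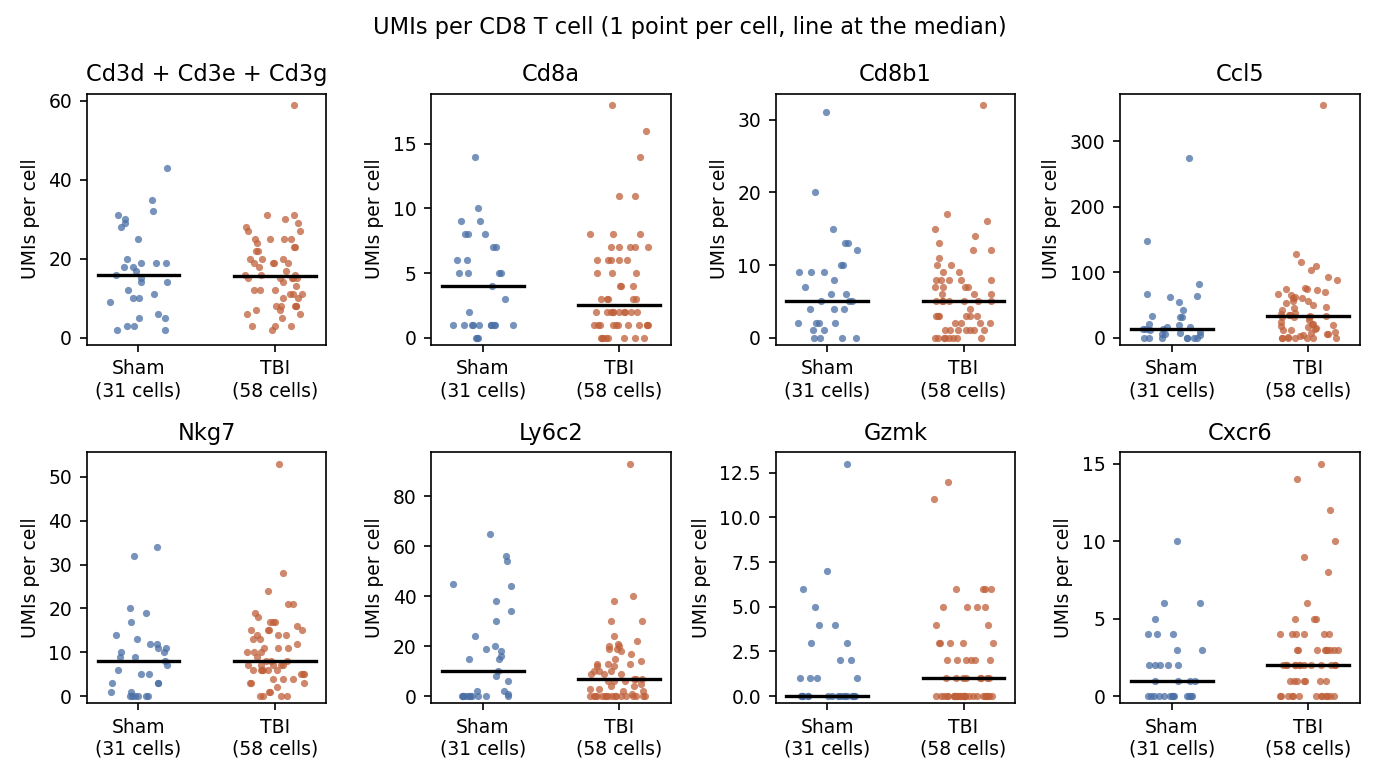
UMIs per cell of the genes that chose the CD8 T cells (Cd3 sum, Cd8a, Cd8b1) and of 5 effector and homing genes, with 1 point per cell and a line at the median of each library. The ranges of the 2 libraries overlapped for every gene drawn, and the median of Ccl5 was 14 UMIs in Sham and 33 in TBI.

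CD4 T cell markers and the B cell marker Cd79a were at 0 by the rule, and gamma-delta and the other B cell markers were near the floor. Of the gamma-delta markers 1 UMI was counted in Sham and 7 in TBI, with 5 and 3 of the 6 genes at 0, and B cell markers other than Cd79a summed to 4 and 2 UMIs. The markers of group 2 innate lymphoid cells summed to 7 and 26 UMIs, of which Gata3, which CD8 T cells also transcribe, gave 7 and 11. NK cell markers, among which Tyrobp was the most abundant, summed to 109 UMIs in 9 Sham cells, 83 of them in 1 cell, and to 260 UMIs in 20 TBI cells. Endothelial markers summed to 5 and 18 UMIs (most abundant Pecam1) and neutrophil markers to 0 and 7 (most abundant S100a9). Red cell markers were at 716 CPM in Sham and 151 CPM in TBI, with Hbb-bs the most abundant. In B cells of the same libraries (Cd79a at 2 or more UMIs and no C1qa) they were at 1653 and 353 CPM, lower in TBI as in the CD8 T cells.

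Of the 89 cells chosen, 7 (2 Sham and 5 TBI) carried transcripts of antigen-presenting cells, at 5 or more UMIs of dendritic cell and macrophage markers (Siglech, Cd209a, Lyz2, Csf1r, Mrc1, Flt3, Clec9a, Itgax) or of the class II gene H2-Aa. H2-Aa had 7 and 16 UMIs in the 2 Sham cells and 7, 36, 40, 220 and 265 UMIs in the 5 TBI cells, and 6 of these cells were also predicted as doublets. They held 20900 UMIs in Sham and 73326 in TBI. Over all CD8 T cells, dendritic cell markers summed to 176 and 338 CPM (most abundant Cd209a) and macrophage markers to 36.4 and 268 CPM (most abundant Lyz2), with 4 and 1 of the 6 macrophage genes at 0. For many of the genes and lists below the values without these 7 cells are given too.

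Of the other marker lists, fibroblast and endothelial markers also reached 5 UMIs in single cells. Fibroblast markers (Col1a1, Col1a2, Col3a1, Dcn) summed to 0 UMIs in Sham and to 71 UMIs in 18 TBI cells, with Col1a1 the most abundant. Of these, 53 UMIs were in 3 TBI cells outside the 7, and 1 of the 3, a cell of 2301 UMIs, held 32. Endothelial markers reached 5 UMIs in 2 more TBI cells, both predicted doublets. These 5 cells with stromal markers, 0 in Sham and 5 in TBI, were left out together with the 7 as a further alternative. Markers of NK cells reached 5 UMIs in 2 Sham and 5 TBI cells outside the 7, those of group 2 innate lymphoid cells in 0 and 1, and those of red cells in 10 and 1, and these cells were kept.

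CD8 T cells were a small share of the meningeal cells in both libraries. They were 31 of 2043 filtered Sham cells (1.52%, interval 1.03 to 2.15) and 58 of 3773 filtered TBI cells (1.54%, 1.17 to 1.98). Among cells with a UMI of the leukocyte gene Ptprc the shares were 2.89% (1.96 to 4.10) and 3.59% (2.69 to 4.68), and among all Cd3 cells 20.0% (14.01 to 27.2) and 23.8% (18.6 to 29.6). With each cell of at least 1000 UMIs thinned to 1000, the gate found 15 of 1655 Sham cells (0.906%, 0.508 to 1.49) and 38 of 3234 TBI cells (1.18%, 0.833 to 1.61). Each pair of intervals overlapped. Of the CD8 and CD4 T cells together (CD4: the same Cd3 rule, Cd4 or Cd40lg detected, no Cd8a or Cd8b1), CD8 T cells were 34.4% (24.7 to 45.2) in Sham and 46.0% (37.1 to 55.1) in TBI. CD4 T cells were 59 and 68 cells, 2.89% and 1.80% of filtered cells.

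Most of the CD8 T cells in both libraries held transcripts of the effector-memory genes Ccl5, Nkg7 and Ly6c2. Ccl5, a chemokine of antigen-experienced T cells and NK cells (GRCm38 chr11:83525778-83530518, minus strand), was detected in 24 of 31 Sham cells (77.4%, interval 58.9 to 90.4) and 51 of 58 TBI cells (87.9%, 76.7 to 95.01), against 1.81% and 2.93% of B cells, which should lack it and had median depths of 3183.5 and 2734 UMIs. Nkg7, a granule membrane protein of cytotoxic lymphocytes, was detected in 80.6% and 93.1% of CD8 T cells and in 0.226% and 1.22% of B cells. Ly6c2, a surface antigen of memory CD8 T cells, was detected in 67.7% and 70.7% (64.3% and 64.9% after thinning to 1000 UMIs) and in 2.94% and 1.46% of B cells. After thinning each cell to 1000 UMIs, which left 28 Sham and 57 TBI cells, the shares were 71.4% and 87.7% for Ccl5 and 67.9% and 87.7% for Nkg7, so the detection of both was high at equal depth.

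Granzymes differed widely in how many cells held them. Gzmk, the granzyme of memory-type cells, was found in 14 Sham and 31 TBI cells (45.2% and 53.4%) and in 0 of the 442 and 410 B cells. Gzmb, the granzyme of armed killers, was found in 5 and 8 cells, and Gzma in 3 and 4 cells, where a single cell gave 81.0% of the Sham UMIs and 46.7% of the TBI UMIs. Perforin (Prf1) was found in 11 and 18 cells with at most 4 UMIs in any cell. In B cells Gzmb and Gzma were each found in 0.226% and 0.488%, and Prf1 in 0.679% and 0.732%. After thinning, Gzmb was found in 14.3% of Sham and 1.75% of TBI CD8 T cells, Gzma in 7.14% and 5.26%, and Prf1 in 14.3% and 10.5%. A Sham cell with 274 UMIs of Ccl5 held 23 of the 32 Sham UMIs of Gzmb.

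Homing and residency genes were mixed. Cxcr6, a chemokine receptor of tissue T cells, was found in 18 Sham and 45 TBI cells (58.1% and 77.6%, or 14.3% and 49.1% after thinning), and Itga1, the alpha chain of a collagen-binding integrin, in 7 and 19 cells (22.6% and 32.8%, or 0% and 12.3% after thinning). In B cells Cxcr6 was found in 0% and 0.732% and Itga1 in 0% and 0.976%. Itgae, the CD103 chain of epithelial resident cells, was found in 0 of 31 and 1 of 58 cells. Runx3, the factor of the CD8 lineage, had 28 and 61 UMIs, and Zbtb7b, its counterpart in CD4 T cells, 3 and 6. Ccr7, the chemokine receptor that guides T cells into lymph nodes, was found in 7 and 8 cells, and since B cells transcribe it too (43.2% and 36.3% of them), they give no background for it. Cxcr6 and Ly6c2 were found together in 14 Sham and 31 TBI cells, Cxcr6 without Ly6c2 in 4 and 14, and Gzmk and Cxcr6 together in 9 and 24.

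The 7 Sham and 7 TBI cells without a UMI of Ccl5 differed from the rest in granule and homing genes, and the comparison rests on 30875 and 40914 UMIs, with 1 cell of each set among the 7 with antigen-presenting cell markers and 1 more of the TBI set the cell with 32 UMIs of fibroblast markers. Gzmk was at 396 CPM in the Sham cells with Ccl5 and at 0 in those without, at least 4.08-fold higher against a floor of 3 counts over the group, and in TBI at 426 CPM and 0, at least 5.81-fold higher. Nkg7 was at 2032 and 97.2 CPM in Sham (3 UMIs, in 1 cell, in those without) and at 2209 and 684 CPM in TBI. Cxcr6 was at 441 CPM and 0 in Sham, at least 4.54-fold higher, and at 643 and 171 CPM in TBI. The cell among the 7 held 13001 of the Sham and 20262 of the TBI UMIs without Ccl5, and with all 7 such cells left out the Gzmk bounds were 2.51-fold in Sham and 3.22-fold in TBI, Cxcr6 was at least 2.74-fold higher in Sham and at 722 and 291 CPM in TBI, and Nkg7 was at 1890 and 168 CPM in Sham and at 2518 and 726 CPM in TBI. Gzmk, Nkg7 and Cxcr6 were higher in cells with Ccl5 in both libraries either way. They were so with the 5 cells with stromal markers left out too, where the Gzmk bound in TBI was 2.97-fold. With all cells kept, Itga1 was at 109 CPM with Ccl5 and 24.4 CPM without in TBI, and at 74.7 and 130 CPM in Sham. The values without Ccl5 came from 1 UMI in TBI, under the floor of 73.3 CPM, and from 4 UMIs in 1 Sham cell. The interval of each ratio held 0, so no direction is read for Itga1.

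The lymph node homing receptor Ccr7 stood the other way. It was at 52.3 CPM with Ccl5 and 194 CPM without in Sham, and at 19.4 and 73.3 CPM in TBI, where 3 UMIs gave the value without Ccl5. It was at 55.6 and 336 CPM in Sham and at 24.4 and 145 CPM in TBI with the 7 cells left out. Il7r, the interleukin 7 receptor, was higher without Ccl5 in Sham (421 against 187 CPM) and lower in TBI (97.8 against 151 CPM), and without the 7 cells the values were 336 against 199 CPM and 145 against 181 CPM. Lef1, a transcription factor of naive T cells, was at 142 CPM with Ccl5 and 162 CPM without in Sham and at 65.9 and 48.9 CPM in TBI. Lef1 without the 7 cells was at 151 and 280 CPM in Sham and at 82.9 and 96.8 CPM in TBI, so that its direction turned in TBI, from 2 UMIs in the cells without Ccl5.

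**Figure D2:**
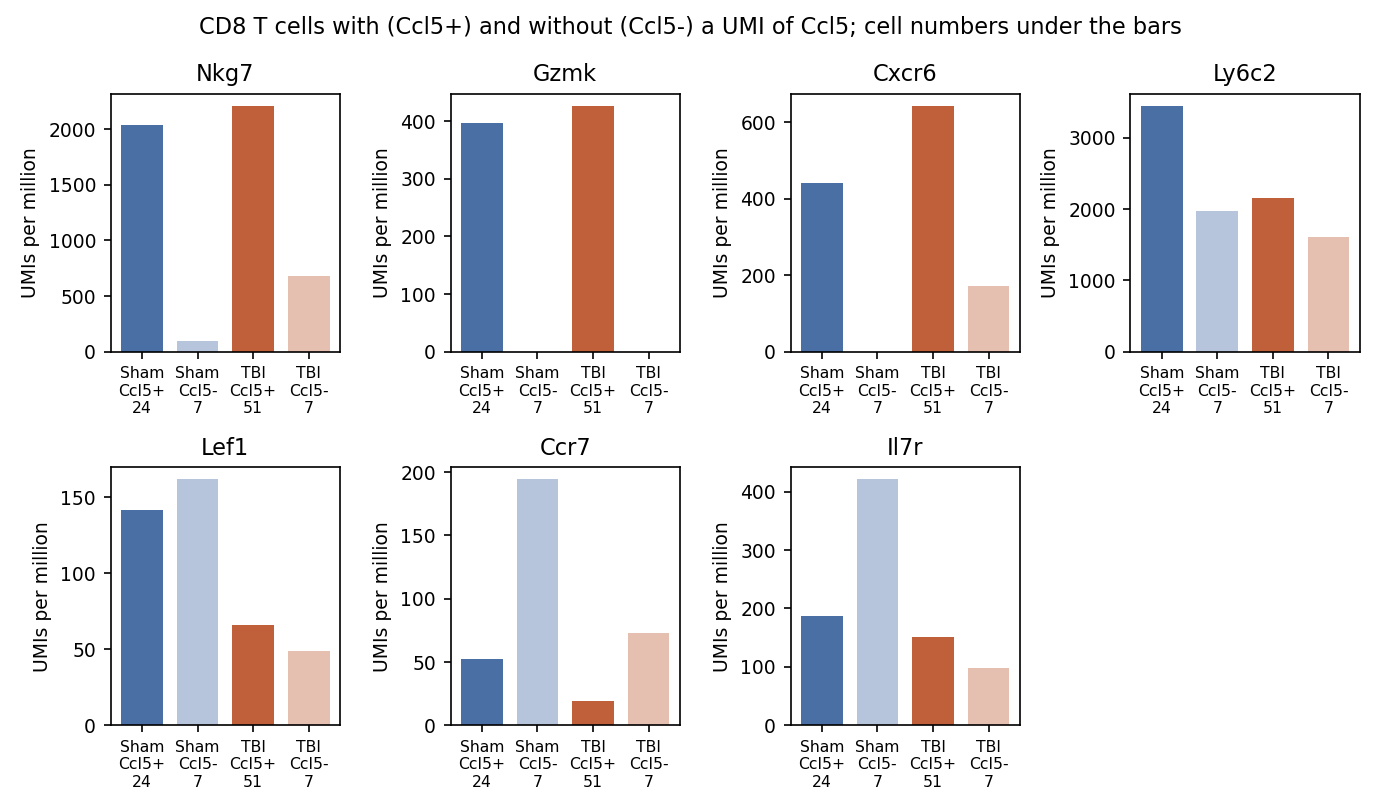
CPM of the summed UMIs of 7 genes in CD8 T cells with (Ccl5+) and without (Ccl5-) a UMI of Ccl5, 1 bar per set and library and the number of cells under each bar. Nkg7, Gzmk and Cxcr6 were higher with Ccl5 and Ccr7 higher without it in both libraries, and each set without Ccl5 held 7 cells.

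T cell receptor genes were spread over many variable segments. A Trbv segment was detected in 28 of 31 Sham and 56 of 58 TBI cells, and 19 of 35 listed Trbv genes were detected in each library. The 5 most often detected were Trbv13-2 (5 Sham and 7 TBI cells), Trbv3 (4 and 7), Trbv12-2 (4 and 6), Trbv13-1 (4 and 5) and Trbv16 (3 and 6), with Trbv12-1 (2 and 7) in as many cells as the last of them. No segment was found in more than 5 Sham or 7 TBI cells. More than 1 Trbv gene was counted in 8 Sham and 11 TBI cells. Of 128 Trav genes, 20 were found in Sham and 29 in TBI, with Trav12-2 in the most cells over both libraries together (4 and 3) and Trav6-4 in the most in TBI (0 and 5). These 3′ libraries give no rearranged junctions, so the counts describe segment use and not clones.

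The TBI and Sham sums were then compared gene by gene, as the log2 of the ratio of CPM with 0.5 added to each sum. Of 2182 genes with at least 30 UMIs, 103 (4.72%) were at a log2 ratio of 1 or more and 31 (1.42%) at -1 or less, with a median of 0.04 over all of them and 1177 above 0. Without the 7 cells with antigen-presenting cell markers, 64 of 1689 genes were at 1 or more and 19 at -1 or less. Of the 103 and 31 genes, 72 and 22 still lay at such ratios, counted without the minimum of 30 UMIs. With the 5 cells with stromal markers left out too, 49 of 1557 genes were at 1 or more and 20 at -1 or less. Then 65 of the 103 and 20 of the 31 still lay at such ratios, again counted without the minimum. Counts of list genes past the fold below stand beside the 4.72% and 1.42% of all genes. A log2 ratio of 1 is a convention of size and not a test.

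The genes with the highest TBI over Sham ratios were class II, stromal, myeloid and histone genes and a receptor segment. Hist1h2ae, a histone gene, had 0 UMIs in Sham and 69 in TBI, at least 12.7-fold higher against the floor, and 1 cell held 64 of them. Igfbp5 had 1 and 69 UMIs, 40 of them in 1 cell, and Mgp had 1 and 61 UMIs, spread over 25 TBI cells. Both are known from stromal cells, and in B cells Mgp was found in 2.49% of Sham and 25.9% of TBI cells, against 3.23% and 43.1% of CD8 T cells with median depths of 5486 and 3983 UMIs. Without the 7 cells and the 5 with stromal markers, Igfbp5 and Mgp each had 1 and 23 UMIs (log2 ratio 3.48 for each).

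The class II genes H2-Ab1, H2-Aa and H2-Eb1 had 12 and 329, 25 and 580, and 19 and 402 UMIs, and Lyz2 had 4 and 60. Without the 7 cells H2-Ab1 had 0 and 1 UMIs, H2-Aa 2 and 12, H2-Eb1 0 and 2 and Lyz2 4 and 4. H2-Aa and Lyz2 were among the genes that chose the 7 cells, so their fall follows in part from that choice. Without predicted doublets, which keeps the Sham cell with 16 UMIs of H2-Aa, the log2 ratios were -3.29 for H2-Ab1, -1.05 for H2-Aa, -3.29 for H2-Eb1 and -0.84 for Lyz2. Ifitm3 (2 and 57 UMIs, or 2 and 3 without the 7 cells and the 5 with stromal markers) and Lgals3 (3 and 67 UMIs, 34 of them in 1 TBI cell, or 2 and 11 without the 7 cells, where the log2 ratio went from 3.41 to 1.55, interval -0.39 to 5.02) complete the 10 highest with Trbv1 (4 and 87 UMIs), which was found in 1 Sham and 5 TBI cells. At the low end stood Isg15, Hbb-bs, Irf8, Plac8, Ifit1, Gzmb, Ikzf1, Ifi208, Dnm2 and Rassf5. Among these, 1 Sham cell with 13 UMIs of Siglech, the plasmacytoid dendritic cell gene, held 33 of the 60 Sham UMIs of Plac8 and 23 of the 38 of Irf8, and without the 7 cells the log2 ratio of Plac8 was -0.82 and that of Irf8 1.47, the latter from 1 and 6 UMIs. Ikzf1, a lymphoid transcription factor, had 31 UMIs in 18 Sham cells and 22 UMIs in 16 TBI cells, a log2 ratio of -1.35 (interval -2.21 to -0.52).

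**Figure D3:**
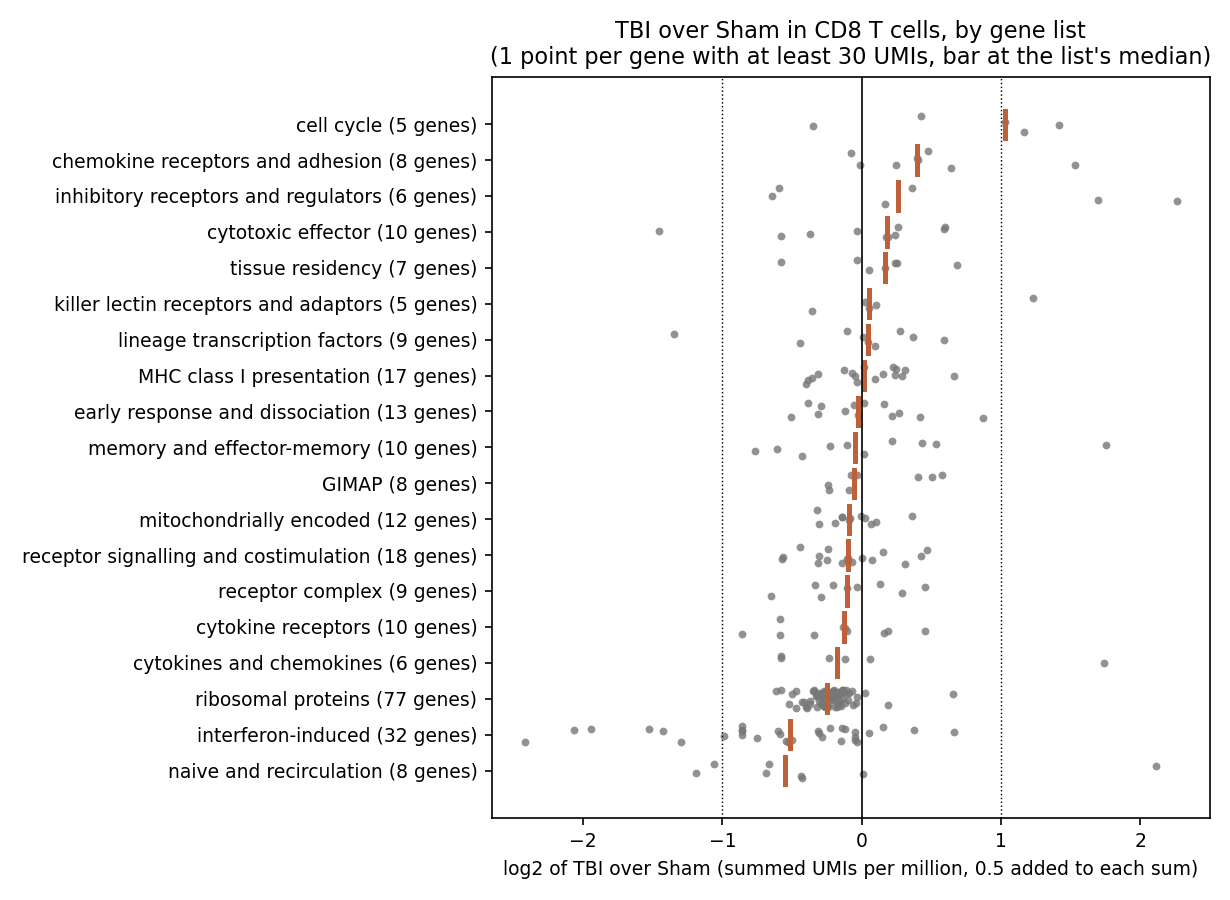
Log2 ratio of TBI over Sham in CD8 T cells, 1 point per gene with at least 30 UMIs and a bar at each list's median, with dotted lines at -1 and 1 (5 genes of the receptor complex list chose the cells). Among the lists drawn, the naive and interferon-induced lists have the lowest medians (-0.55 and -0.52), and the cell cycle list, on 5 genes, the highest (1.03).

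No measured gene of the receptor signalling chain was past the fold. Of the 9 receptor complex genes, Cd3d, Cd3e, Cd3g, Cd8a and Cd8b1 chose the cells, and nothing is read from their ratios. The 4 others were the constant-region genes Trac with 39 and 58 UMIs (-0.29, interval -0.90 to 0.34), Trbc1 with 19 and 22 (-0.65, -1.60 to 0.32) and Trbc2 with 59 and 100 (-0.10, -0.58 to 0.39), and the zeta chain gene Cd247 with 27 and 68 (0.46, -0.19 to 1.17). All 4 intervals held 0. Of 18 signalling and costimulation genes none was at 1 or more or at -1 or less, at a median of -0.10. Lck, the kinase bound to CD8, had 143 and 210 UMIs (-0.31, interval -0.62 to 0.01), Zap70, the kinase recruited by CD3, 24 and 61 (0.47, -0.22 to 1.23), and Cd28, the costimulatory receptor, 30 and 37 (-0.56, -1.29 to 0.19).

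Of the 10 measured cytotoxic effector genes 1 was past the fold, Gzmb at -1.46 (interval -2.34 to -0.63), or -0.20 with the cell holding most of its UMIs left out of each library (23 of the 32 in Sham), and the list's median was 0.18. Nkg7 was at 1670 CPM in Sham and 2001 in TBI (0.26, 0.05 to 0.47), and Ctsw, a cysteine protease of cytotoxic cells, at 638 and 719 CPM (0.17, -0.17 to 0.52). Gzmk was at 322 and 368 CPM (0.19, -0.29 to 0.69) and Prf1 at 103 and 80.3 CPM (-0.37, -1.32 to 0.63). Srgn, the proteoglycan of secretory granules, was at 419 and 636 CPM (0.59, 0.20 to 1.02). All measured granule genes but Gzmb lay within 1 of 0.

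The chemokine Ccl5 was the most abundant gene of the memory list, at 6357 CPM in Sham and 8571 in TBI (0.43, interval 0.33 to 0.54), with 26.2% and 13.9% of its UMIs in a single cell. Ly6c2 stood the other way, at 3169 and 2084 CPM (-0.60, -0.77 to -0.43). The median over the 10 measured genes of the list was -0.05, with 1 gene past the fold, Zeb2, a factor of effector cells, from 4 and 27 UMIs (1.75, 0.37 to 3.87). Zeb2 without the 7 cells had 4 and 16 UMIs (1.22, -0.28 to 3.39), under the minimum of 30, so that 0 of 6 measured genes were past the fold, and the median was 0.25. Of the 7 measured residency genes none was past the fold, and without the 7 cells 1 of 6 was. Cxcr6 was at 358 and 579 CPM (0.68, 0.26 to 1.14), Runx3 at 170 and 204 CPM (0.25, -0.40 to 0.96) and Cd69, which marks recent activation or residency, at 91.1 and 90.3 CPM (-0.03, -0.97 to 1.00).

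Chemokine receptor and adhesion genes were mostly above 0, at 6 of 8 measured, beside 1177 of all 2182, and a median of 0.40. Itgb1, an integrin beta chain of adhesion to matrix and vessel, was at 352 and 552 CPM (0.64, 0.21 to 1.11), and Cxcr3, the receptor of interferon-induced chemokines, at 237 and 345 CPM. Ccr2, a receptor of monocyte-attracting chemokines, had 12 and 65 UMIs (1.53, 0.68 to 2.60), but 26 of the 65 were in 1 cell, and without the 7 cells it had 10 and 21 UMIs (0.38, -0.73 to 1.67), and with the 5 cells with stromal markers left out too 10 and 14 (-0.02). Of the 6 measured cytokine and chemokine genes only Ccl4, a chemokine of activated T cells, was past the fold, at 9 and 57 UMIs with 32 in 1 TBI cell (1.74, 0.78 to 3.003), and the list's median was -0.18, or 0.17 without the 7 cells. Xcl1, which attracts cross-presenting dendritic cells, had 78 and 95 UMIs (-0.58, -1.02 to -0.12), and 52 of the 78 were in the Sham cell with 16 UMIs of H2-Aa. Without the 7 cells Xcl1 had 26 and 91 UMIs and its log2 ratio turned to 1.14 (0.52 to 1.85). Ifng was found in 2 Sham and 9 TBI cells, with 3 and 12 UMIs, and in 0% and 0.732% of B cells.

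Of the 6 measured inhibitory genes Pdcd1 and Tox were at 1 or more, beside 4.72% of all genes, and none at -1 or less. With the 7 cells left out only 3 of the list were measured and Pdcd1 alone was past the fold, at 2 and 29 UMIs (2.91, 1.23 to 6.32), and Tox, at 4 and 23 UMIs, was under the minimum of 30. Pdcd1, the checkpoint receptor PD-1, was found in 3 Sham and 10 TBI cells (9.68%, interval 2.04 to 25.8, and 17.2%, 8.59 to 29.4), with 3 and 30 UMIs (2.26, 0.78 to 4.82). Tox, a factor of chronically stimulated T cells, was found in 4 and 15 cells with 4 and 26 UMIs (1.70, 0.31 to 3.82). Of the 10 TBI cells with Pdcd1, 8 also had Tox, as did 1 of the 3 Sham cells. After thinning to 1000 UMIs Pdcd1 was found in 0% and 7.02% of cells and Tox in 7.14% and 10.5%. In B cells as sequenced Pdcd1 was found in 0.226% and 0.732% and Tox in 0% and 0.488%. The intervals of the unthinned shares overlapped for Pdcd1. Lag3, another inhibitory receptor, had 19 and 23 UMIs, with 13 and 5 of the 19 in the Sham cells with antigen-presenting cell markers, and without the 7 cells it had 1 and 23.

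Naive and recirculation genes had the lowest median of the T cell lists, -0.55 over 8 measured genes of 14, of which 2 were at -1 or less, beside 1.42% of all genes, and 1 at 1 or more, beside 4.72%. With those 7 cells left out none of 6 measured genes was at -1 or less, with Lef1 at -0.98, and Igfbp4 was still at 1 or more. Lef1 had 24 and 19 UMIs (-1.19, interval -2.15 to -0.27), Il7r 38 and 43 (-0.68, -1.35 to -0.01) and Tcf7, the partner factor of Lef1, 27 and 31 (-0.66, -1.45 to 0.14). Klf2, which keeps T cells recirculating, was at 255 and 258 CPM, and Igfbp4 had 3 and 27 UMIs (2.11, 0.61 to 4.67). With the 5 cells with stromal markers left out too, Igfbp4 had 3 and 2 UMIs and its log2 ratio turned to -0.97. Lef1 was found in 48.4% of Sham and 22.4% of TBI cells as sequenced, but in 10.7% and 10.5% after thinning to 1000 UMIs, against 6.56% and 9.02% of B cells as sequenced and 2.88% and 4.12% of them after thinning. In the cells with Ccl5 alone the list's median was -0.55, without the 7 cells it was -0.28 on 6 genes, and with the 5 cells with stromal markers left out too it was -0.49 on 5.

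Genes of the interferon-induced list were lower in TBI for 28 of 32 measured, at a median of -0.52, with 4 above 0, beside 1177 of all 2182, and with 6 at -1 or less, beside 1.42% of all, and 0 at 1 or more. Isg15, a ubiquitin-like modifier, had 57 and 19 UMIs (-2.42, interval -3.28 to -1.67), Ifit3 26 and 12 (-1.94, -3.10 to -0.94) and Ifit1 32 and 20 (-1.52, -2.42 to -0.69), both of the last being proteins that bind viral RNA. The DNA-sensor family genes Ifi206 and Ifi208 stood at -2.06 and -1.30 and Xaf1 at -1.43. Against these, Ifi27l2a (95 and 224 UMIs, 0.37, 0.03 to 0.74) and the immunoproteasome gene Psmb9 (40 and 116 UMIs, 0.66, 0.15 to 1.23) were higher in TBI.

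Promoters of the interferon-induced list were searched on either strand for GAAA, any 2 bases and GAAA, the letters of the interferon-stimulated response element, in the 250 bases before to 50 after each RefSeq start on GRCm38.p6. Of 41 list genes with a promoter 23 (56.1%) held it, and of all 27025 genes 1079 (3.99%). Of the 6 genes with at least 30 UMIs at -1 or less all but Xaf1 held it, and 1 stretch of each is shown along the gene's strand because these are the lowest ratios of the list among genes with at least 30 UMIs, with the 10 matched bases in capitals, which read TTTC, any 2 bases and TTTC where the match is on the opposite strand.
Isg15: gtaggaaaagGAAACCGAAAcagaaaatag
Ifit3: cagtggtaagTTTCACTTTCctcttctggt
Ifit1: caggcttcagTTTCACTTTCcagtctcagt
Ifi206: tgtctctgagGAAATCGAAAgctatgaacc
Ifi208: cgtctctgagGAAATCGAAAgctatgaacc
They lie at chr4:156200871-156200900 (minus strand), chr19:34583363-34583392 (plus), chr19:34640775-34640804 (plus), chr1:173491339-173491368 (minus) and chr1:173673597-173673626 (plus). In Isg15 the match shown overlaps 2 others, and Ifit1 and Ifit3 each hold 1 more. A match is a run of letters and says nothing of binding here. Ifi206 and Ifi208 are close relatives, so their counts are uncertain where reads fit both.

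The interferon difference was concentrated in few cells. Per 10000 UMIs, the list ranged in Sham from 21.5 to 411 with a median of 82.1 and in TBI from 17.4 to 293 with a median of 71.3. The 2 Sham cells with the most, 268 and 202 UMIs, held 27.8% of the list's Sham UMIs and 50 of the 57 of Isg15, which was found in 6 Sham and 8 TBI cells. With the top cell of each library left out the list's median was -0.23, and in cells with Cd8b1 it was -0.22. In the same libraries its median TBI over Sham log2 ratio was 0.08 in CD4 T cells, 0.07 in NK cells and 0.24 in B cells, values whose difference from the CD8 T cells was not tested.

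**Figure D4:**
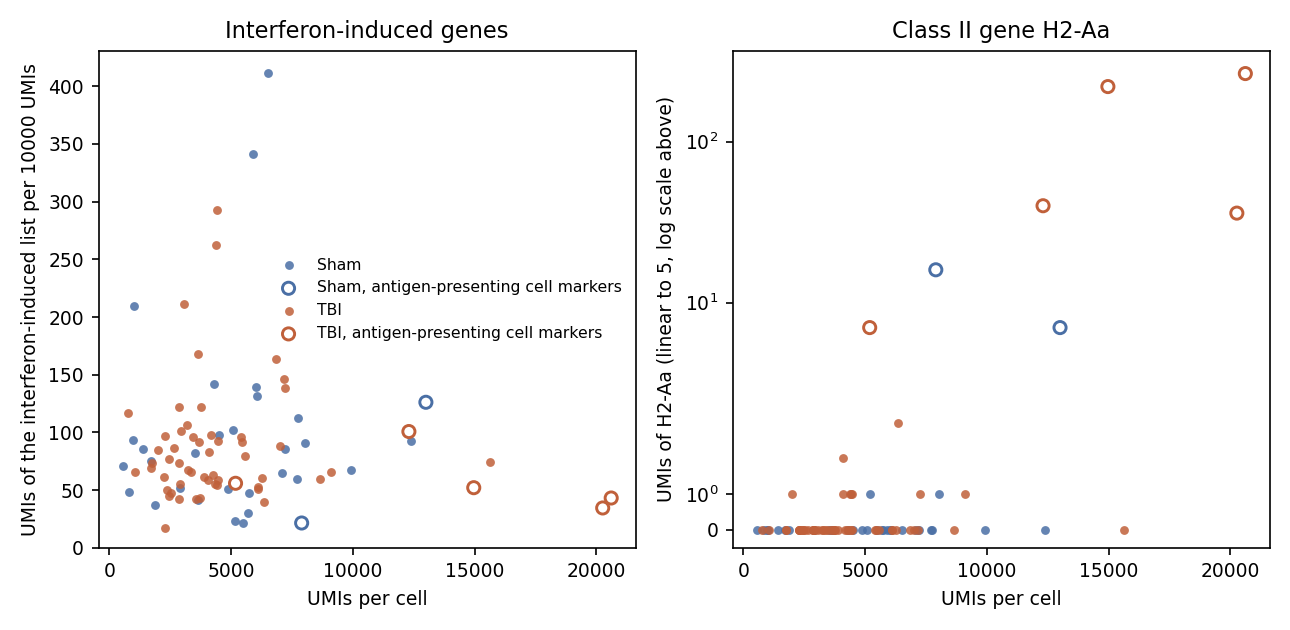
UMIs of the interferon-induced list per 10000 UMIs (left) and UMIs of H2-Aa (right, linear to 5 and logarithmic above) against the UMIs of each CD8 T cell, 1 point per cell, with rings around the 7 cells with antigen-presenting cell markers. The 2 highest points on the left are Sham cells, at 411 and 342, and by the rule that chose them the rings hold every cell with 5 or more UMIs of H2-Aa.

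Class I presentation genes were close in the 2 libraries, at a median of 0.02 over 17 genes with none past the fold. H2-K1 and H2-D1, the heavy chains, were at 3789 and 4041 CPM and at 2957 and 3606 CPM (0.29, interval 0.13 to 0.44, for H2-D1), and B2m, their light chain, at 2356 and 2282 CPM. The 8 measured GIMAP genes, small GTPases of lymphocyte survival, had a median of -0.06. Among killer lectin receptors and adaptors Fcer1g was past the fold at 1.23, from 25 and 108 UMIs, 23 of the 25 in 1 Sham cell (2 and 33 UMIs without the 7 cells), and the median over 5 measured genes was 0.06. The genes the study named for T cells after injury had a median of 0.22 over 10 with none past the fold, and since the study chose them on these libraries this is no independent evidence of their direction.

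Genes with Rpl or Rps symbols, nearly all of them ribosomal protein genes, were lower in TBI for 74 of 77 measured, with 3 above 0, beside 1177 of all 2182, and with none past the fold and a median of -0.25, and they summed to 303775 and 254221 CPM. The list also holds 11 genes of S6 kinases and a binding protein, of which only Rps6ka1 was measured, and without them 74 of 76 were lower at a median of -0.25. Mitochondrially encoded genes had a median of -0.09 over 12 genes, and early response and dissociation genes -0.02 over 13, with Junb (0.87, or 1.02 without the 7 cells) the highest. The cell cycle list had a median of 1.03 on 5 measured genes (Stmn1, Top2a, Pcna, H2afz, Tubb5), but 1 TBI cell held 19 of 26 UMIs of Top2a and 64 of Hist1h2ae, and with the top cell of each library left out the median was -0.07. Top2a was found in 2 Sham and 6 TBI cells. Of the 10 measured cytokine receptor genes none was past the fold, at a median of -0.13, and of the 9 lineage factors, at a median of 0.04 (-0.20 without the 7 cells), Ikzf1 was.

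Within each library the CD8 T cells were set beside CD4 T cells and NK cells (Ncr1 or Klre1 detected, no Cd3d, Cd3e, Cd3g, Cd79a or C1qa), leaving out the genes that chose the cells. Against CD4 T cells, 40 of 4565 genes (0.876%) were at a log2 ratio of 1 or more and 78 (1.71%) at -1 or less in both libraries. Of 14 cytotoxic genes 6 were higher in both, Gzmb, Gzmk, Prf1, Cst7, Nkg7 and Gzmm, and none lower. Nkg7 stood at 1.04 in Sham and 1.38 in TBI, and Gzmk at 5.08 and 1.18, from 2 UMIs in Sham CD4 T cells and 49 in TBI ones. Prf1 had 17 and 24 UMIs in CD8 T cells against 0 and 9 in CD4 T cells, at least 8.97-fold higher in Sham. Ccl5 was higher at 2.25 (interval 2.08 to 2.43) in Sham and 2.34 (2.20 to 2.48) in TBI.

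The other genes with the highest ratios over CD4 T cells included Plac8, Cd7, the receptor segments Trbv12-2 and Trbv17, and Apod, a fibroblast gene that had 6 and 47 UMIs in CD8 T cells (41 of the 47 in the cell with 32 UMIs of fibroblast markers) and 0 and 2 in CD4 T cells. Apod stood at 4.36 in Sham and 4.27 in TBI, or at 2.44 and 4.58 without the 7 cells. Plac8, a gene also transcribed in plasmacytoid dendritic cells, was at 3.06 and 2.12, or 2.12 and 1.95 without the 7 cells with antigen-presenting cell markers. Cd7, an adhesion receptor of T and NK cells, was at 3.42 and 1.19. Lowest were Tnfrsf4, Socs2, Icos, Tbc1d4, Trgv2, Izumo1r, Ikzf2, Maf, Camk4 and Ramp1. Tnfrsf4, the OX40 receptor of helper and regulatory cells, had 1 and 2 UMIs in CD8 T cells against 83 and 22 in CD4 T cells, and Icos, a helper costimulator, 4 and 7 against 42 and 37. Ikzf2, a factor of regulatory T cells, stood at -2.25 and -2.09 and Zbtb7b at -1.74 and -1.23. Cxcr6 was not above the CD4 T cell level in either library (-0.73 and -0.14), and Ifng was below it (-1.28 and -1.40).

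**Figure D5:**
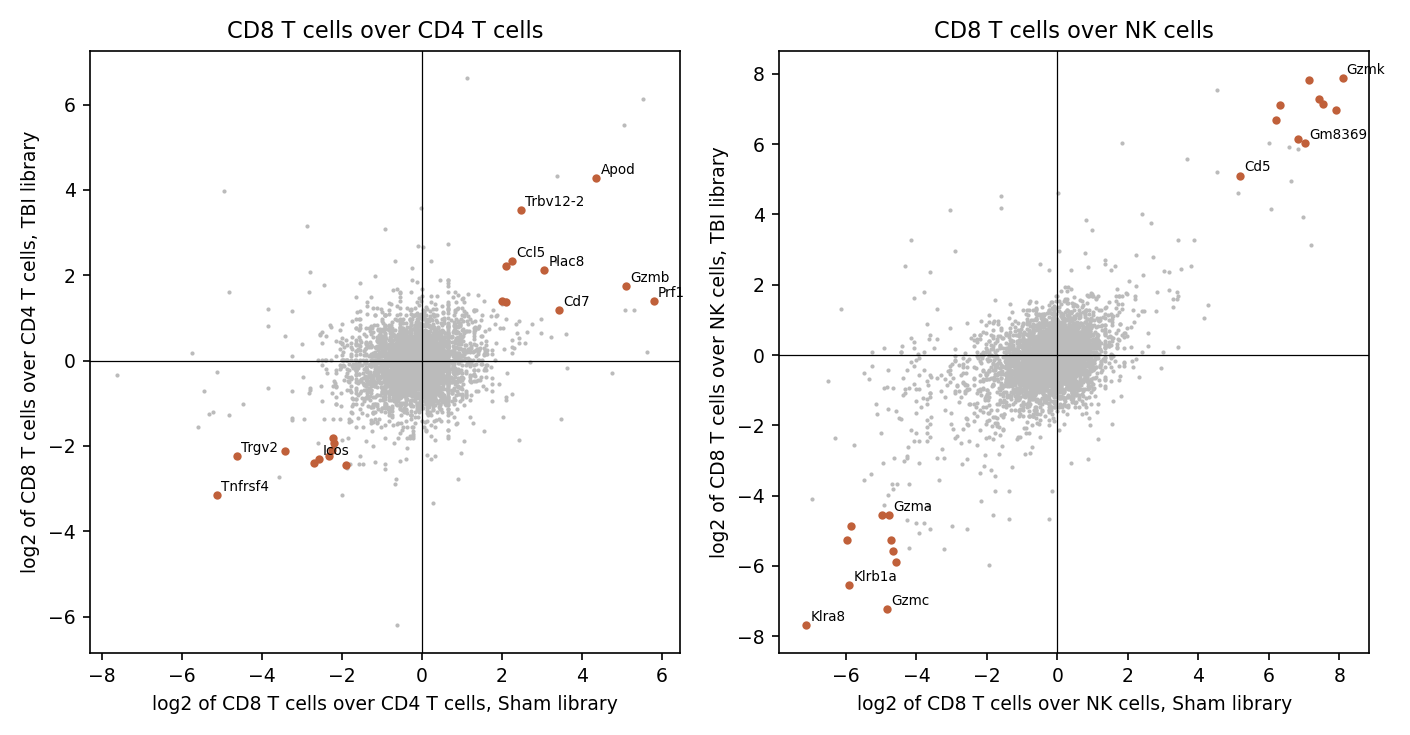
Log2 ratio of CD8 T cells over CD4 T cells (left) and over NK cells (right), Sham library on the horizontal and TBI library on the vertical axis, 1 point per gene with at least 30 UMIs, 0.5 added to each sum and the 10 highest and 10 lowest same-sign genes with at least 50 UMIs in orange. Ccl5 is beyond 2 on both axes over CD4 T cells, and Gzmk and Klra8 lie at opposite corners over NK cells.

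Against NK cells, 94 of 5173 genes (1.82%) were at 1 or more and 218 (4.21%) at -1 or less in both libraries. Gzmk was absent from the NK sums (0 UMIs in each) and at 322 and 368 CPM in CD8 T cells, at least 44.9-fold higher in Sham and 39.1-fold in TBI. Of the 10 genes with the highest ratios 7 were Trbv segments with 0 UMIs in NK cells (Trbv12-2, Trbv17, Trbv3, Trbv13-1, Trbv16, Trbv12-1 and Trbv29), and Cd5, a receptor that tunes T cell signalling, had 21 and 48 UMIs against 1 and 1. The predicted gene Gm8369 had 25 and 30 UMIs against 0 and 0.

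The killer lectin receptors ran the other way, with 13 of 14 measured members and adaptors lower in CD8 T cells in both libraries. Klra8, an inhibitory Ly49 receptor of NK cells, had 0 UMIs in CD8 T cells against 177 and 110, at least 23.2-fold and 34.4-fold lower. Klrb1c (NK1.1) stood at -4.97 and -4.55 and Gzma at -4.77 and -4.55, the latter from 2955 and 1891 UMIs in NK cells. Klrb1a, Klrb1b, Klri2, Gzmc, Styk1 and the delta-chain segments Trdv2-2 and Trdv4 were at or within 2 UMIs of 0 in CD8 T cells. Prf1 (-2.70 and -3.09), Ccl3 (-4.27 and -4.68) and Ccl4 (-4.69 and -3.66) were lower too. Nkg7 was -0.77 and -0.43, short of the fold. Ly6c2 (1.66 and 1.53), Cxcr6 (1.08 and 1.59), Cxcr3 (1.54 and 1.10) and Il7r (1.83 and 1.68) were higher in CD8 T cells in both libraries. Most of the memory list did not follow them. Of its 14 measured genes 2 were at 1 or more and 7 at -1 or less in both libraries, with medians of -1.38 in Sham and -0.89 in TBI. Of 11 residency genes 1 was at 1 or more and 2 at -1 or less, with medians of -0.34 and -0.61.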

How the data were processed

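Live cells of the dorsal meninges were profiled with droplet 3′ single-cell RNA sequencing, 1 library per group. The deposited count tables hold whole-number UMI counts per gene and cell, which the authors made with Cell Ranger against mm10. The matrix headers give Cell Ranger 3.1.0 and the submitters' processing notes 2.1.1, and the methods give another version; no annotation release was found in the methods, labels or headers. The matrices hold 2699 Sham and 4349 TBI barcodes with 9527334 and 15011079 UMIs.

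Counts were summed over the cells of each type and library and scaled to CPM, and 0.5 was added to each sum for log2 ratios. A gene was measured with at least 30 UMIs over the sums compared and past the fold at a log2 ratio of 1 or more or -1 or less. Named genes are those of the lists, the 10 highest and 10 lowest ratios among genes with at least 50 UMIs, and the 5 most detected Trbv segments. Genes, their lists and the cell rule were chosen with earlier results of these data known. The 7 cells with antigen-presenting cell markers, the 5 with stromal markers, the cells with Ccl5 alone, the top cell of each list, and the S6 kinase genes in the ribosomal list were set apart after seeing the data. Doublets were predicted from simulated cell pairs (147 of 5816 cells) and kept in the main values. Gene positions are from GENCODE vM21. Python 3.11.15 with numpy 2.4.6, scipy 1.17.1, pandas 2.3.3 and scikit-learn 1.9.0 was used, and edgeR 4.0.16 in R 4.3.3 gave the TMM scaling tried as an alternative. The authors' own comparisons used DESeq2 1.30.0 and Seurat 3.9.9 per the processing notes, and no value of theirs was used, though 1 list holds genes the study named for T cells from these libraries. The ratio, its interval and the gate were tested on simulated data. Some of the genes that this rule names are not reported here.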

Additional observations from a re-analysis of the deposited data

Results flagged for a closer look

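The medians of the cytokine and chemokine list stood on opposite sides of 0 in the 2 kinds of T cell. The median TBI over Sham log2 ratio was -0.18 in CD8 T cells, over 6 measured genes, and 0.31 in CD4 T cells, over 9. The 2 medians are therefore over unlike sets of genes. Without the 7 CD8 T cells with antigen-presenting cell markers the CD8 value was 0.17. With 1 library per group the difference was not tested.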

How the results depend on the processing

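No paired analysis was possible because each group has 1 library, and leaving out a replicate was not possible for the same reason. The CD8 T cell share was 2.89% in Sham and 3.59% in TBI of cells with Ptprc, 20.0% and 23.8% of T cells, and 0.906% and 1.18% of cells after thinning to 1000 UMIs. Against 103 genes higher in TBI, there were 160 with the mean over cells, 52 without predicted doublets, 579 with at least 10 UMIs, 2166 with no minimum 64 without the 7 cells with antigen-presenting cell markers and 49 with the 5 cells with stromal markers left out too. Against 31 lower, there were 80, 23, 312, 1397, 19 and 20, and 16 with the cell holding most UMIs of each gene left out. The cell cycle median went from 1.03 to -0.0692 with the top cell of each library left out. The ribosomal median was -0.12 with the mean over cells, -0.31 by the median of gene ratios, -0.29 by TMM, -0.20 without the 7 and the 5 cells and -0.30 in cells with Ccl5, and the mitochondrial median was 0.0684 without the 7 cells. Without predicted doublets the log2 ratio was -0.48 for Cd209a (0 UMIs in both libraries), -1.05 for H2-Aa, -3.29 for H2-Ab1, -3.29 for H2-Eb1 and -0.84 for Lyz2. Without the 7 cells it was 1.47 for Irf8 and -0.65 for Lyz2, and without the 5 too it was 1.63 for Irf8, -0.85 for Lyz2, -0.49 for Cd209a (0 UMIs in both libraries), -0.97 for Igfbp4, -0.0216 for Ccr2 and -0.0018 for Ifitm3. Beyond the cells or genes each setting leaves out, the cause was not tested. Of 20 list medians 12 changed sign under at least 1 alternative, most often memory (8 of 11), class I, cytokines and lineage factors (5 each), and early response and GIMAP (4 each). The interferon median ranged from -0.58 to -0.22 and the naive median from -0.87 to -0.28. Counting error, 31 and 58 cells and single cells that hold most of a gene's UMIs limit every ratio.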
